A study of Mus musculus with 2 samples.

Results

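Mature B cells of the bone marrow were taken from single-cell RNA libraries of aged C57BL/6J mice transplanted with young gut microbiota (FMT_young) or with aged gut microbiota (FMT_aged), with 1 library per group. The recipients of both groups were aged mice, so they share the age of the host and differ in the donor microbiota. Flow-sorted whole marrow, lineage-negative cells and lineage-negative Kit-positive cells had been mixed in parts of 1, 1 and 4, and the number, sex and exact age of the animals in a library are not in the labels. A cell was counted as a mature B cell when it held at least 1 UMI each of Cd79a, Ms4a1 and Cd74 and less than 20% of its UMIs in immunoglobulin genes. The members were thus chosen by their measured UMIs of 3 genes and their immunoglobulin share, which selected 419 of 11932 called cells in FMT_young and 580 of 11351 in FMT_aged, 999 of 23283 cells in all. A barcode was called as a cell from 1000 UMIs (unique molecular identifiers, 1 per captured transcript) and 500 genes upward, with no more than 10% mitochondrial UMIs.

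New B cells leave the marrow as transitional cells, finish their development in the spleen and recirculate, so that the marrow holds returning naive cells, memory cells and B-1 cells beside the plasma cells that secrete antibody. Their surface receptor is membrane immunoglobulin held by the signalling chains that Cd79a and Cd79b encode, and Ms4a1 encodes CD20. Cd74 encodes the invariant chain that guides MHC class II molecules to peptide. Naive follicular cells carry IgM together with IgD, the product of Ighd, while B-1, marginal zone and antibody-secreting cells carry mostly IgM or switched classes.

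The libraries held 214982156 UMIs in FMT_young and 207642851 in FMT_aged, and called cells had medians of 12438.5 and 13000 UMIs. A single library stands for each group, so nothing was tested and no replicate error is known. Levels are UMIs summed over the cells of a set and scaled to counts per 1e6 UMIs of that set (CPM), and log2 ratios are FMT_young over FMT_aged. All intervals are 95% intervals that cover counting error only, and a difference described here is one between these 2 libraries. Of the called barcodes, 34 occurred in both libraries, and none was a mature B cell in both.

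Clustering of the 999 cells gave 8 clusters, of which 3 were led by markers of other cell types. Cluster 1 was led by the granule protein genes Elane, Prtn3, Ctsg and Mpo, and held 106 FMT_young and 115 FMT_aged cells, of which 62.3% and 80.0% were called as doublets. Cluster 5, with 24 and 17 cells, was led by the neutrophil genes Stfa1, Retnlg, Ltf and Ngp. Cluster 6, with 18 and 19 cells, was led by the T and NK cell genes Ccl5, Xcl1, Klrd1 and Cd3d. The 3 clusters held 148 cells of FMT_young at a median of 32556 UMIs and 151 of FMT_aged at 21577, so that they outweighed the other cells in any sum: cluster 1 alone held 70.6% of the gate's UMIs in FMT_young and 57.1% in FMT_aged. The leading genes of these 3 clusters go against the label of mature B cells, and the values below follow the other 5 clusters, numbered 0, 2, 3, 4 and 7 and called the B cell clusters. This choice was made after the values had been seen.

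The B cell clusters held 271 cells of FMT_young, at a median of 3036 UMIs, and 429 of FMT_aged, at 4138, and none of the FMT_young cells and 6 of the FMT_aged cells were called as doublets. Over these clusters together B cell markers were common: a UMI of Cd79b was found in 96.7% of FMT_young and 98.1% of FMT_aged cells, of Bank1, an adaptor gene of the B cell receptor, in 82.3% and 80.7%, and of Fcmr, the IgM Fc receptor gene, in 77.1% and 62.5%. Cd79b had 1443 CPM in FMT_young and 1204 CPM in FMT_aged. Granule progenitor cells, gated as a background in which B cell genes should be absent, had medians of 20984 UMIs in FMT_young and 23409 in FMT_aged. A UMI of Bank1 was found in 2.01% and 2.14% of them, while Cd79b was found in 42.4% and 50.5%, at 31.3 and 34.6 CPM. Ighd was found in 56.5% of FMT_young and 37.8% of FMT_aged cells of the B cell clusters, in 36.5% and 18.4% with each cell thinned to 1000 UMIs, and in 1.48% and 1.62% of granule progenitors.

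Near the immunoglobulin limit of the rule many cells carried transcripts of another lineage. Members with 10% to under 20% immunoglobulin numbered 73 in FMT_young and 53 in FMT_aged, and at least 2 UMIs of Elane were found in 97.3% and 64.2% of them. Just outside, at 20% to under 30%, were 75 and 56 cells, with Elane in 86.7% and 75.0%. Members with exactly 1 UMI of Ms4a1 numbered 110 in FMT_young and 96 in FMT_aged, with medians of 21.5 and 19 UMIs of Cd74, while cells that failed only for lack of Ms4a1 numbered 437 and 261, with medians of 4 and 5 UMIs.

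**Figure D1:**
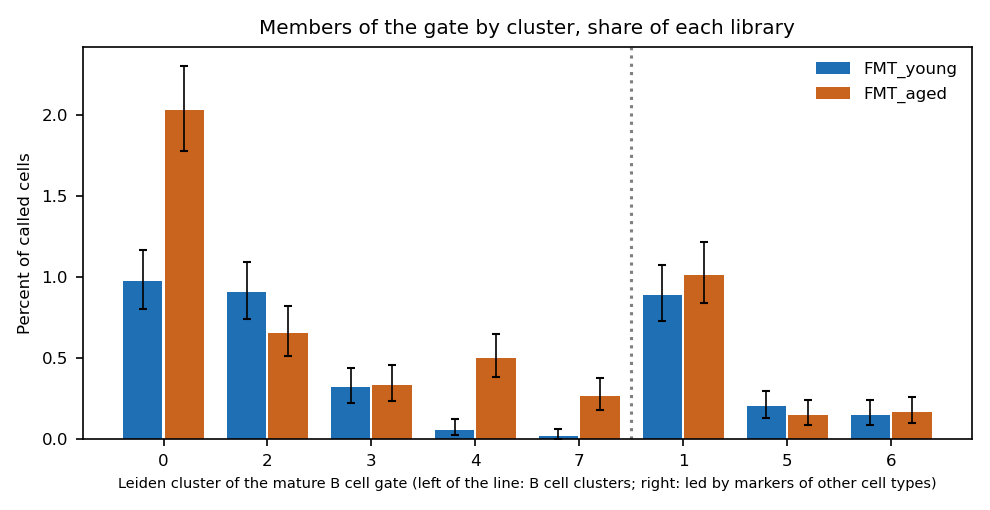
Share of called cells (percent, vertical axis) held by each cluster of the mature B cell gate, in FMT_young (blue, left bar) and FMT_aged (orange, right bar), with exact 95% binomial intervals as error bars. Cluster 2 held 0.905% of FMT_young and 0.652% of FMT_aged cells, while clusters 0, 4 and 7 held smaller shares in FMT_young, 0.0587% against 0.502% for cluster 4.

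Mature B cells by the rule made up 3.51% of called cells in FMT_young (3.19% to 3.86%) and 5.11% in FMT_aged (4.71% to 5.53%), a log2 ratio of -0.54 (-0.73 to -0.36). The B cell clusters made up 2.27% in FMT_young (2.01% to 2.55%) and 3.78% in FMT_aged (3.44% to 4.15%), a log2 ratio of -0.73 (-0.96 to -0.51). The sorted mix sets these shares in part, and 4.96% of FMT_young and 9.12% of FMT_aged cells with no UMI of Kit were mature B cells by the rule. The share of mitochondrial UMIs differed too, with medians of 4.82% in FMT_young and 5.88% in FMT_aged over the B cell clusters. With the mitochondrial limit at 5%, the ratio was -0.14 (-0.38 to 0.11) for the rule and -0.19 (-0.53 to 0.14) for the B cell clusters, and both intervals hold 0. Without clusters 4 and 7 the ratio of the B cell clusters was -0.46. The share of cells with at least 20% immunoglobulin UMIs was higher in FMT_young, 13.7% against 7.53% in FMT_aged.

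The 5 B cell clusters differed from each other in their leading genes, which are given as a description because the clusters were built from them. Cluster 0, the largest, held 116 FMT_young cells (0.972% of called cells) and 230 FMT_aged cells (2.03%), with Ahnak2, Zcwpw1, Tnfsf8, Lmo7, Ctla4 and S100a6 among its leaders. Bhlhe41, a transcription factor gene of B-1 cells, was found in 44.0% of FMT_young and 54.8% of FMT_aged cells of cluster 0, the zinc finger gene Zbtb32 in 30.2% and 33.5%, and Ctla4, an inhibitory receptor gene, in 33.6% and 32.2%. Bhlhe41 was not particular to cluster 0, where it had 141 CPM in FMT_young and 211 CPM in FMT_aged. In the same order it had 116 and 227 CPM in cluster 3, 146 and 131 CPM in cluster 4, and 38.6 and 59.9 CPM in cluster 2. Ighd was found in 31.9% and 27.8%, and Cd5, the classical surface marker of B-1a cells, in 4.31% of FMT_young and 3.04% of FMT_aged cells of cluster 0. The list of B-1 markers was thus only partly detected in cluster 0, and the cluster was given no cell type name.

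Cluster 2 held 108 FMT_young cells (0.905%) and 74 FMT_aged cells (0.652%). Its top leading gene was Vpreb3, of the list of immature and transitional genes. The naive and follicular genes Fcer2a, Bach2, Ccr7 and Satb1 and Cr2, of the marginal zone list, were also among its leaders, and Ccr7 was a leader of cluster 3 as well. Ighd was found in 85.2% and 78.4% of its cells, Fcer2a, which encodes the low-affinity IgE receptor CD23, in 38.9% and 35.1%, and Cr2, which encodes the complement receptor CD21, in 23.1% and 21.6%. Its cells had medians of 2140 UMIs in FMT_young and 2101 in FMT_aged, the lowest of the 5 clusters. Cluster 3 held 38 cells in each library and was led by Dnm3, Rgs1, Nt5e, Cd72 and Zeb2. Nt5e, a memory B cell marker that encodes CD73, was found there in 21.1% of FMT_young and 26.3% of FMT_aged cells, and Tbx21, the factor of age-associated B cells, in 10.5% and 13.2%. In granule progenitors the shares of these subset genes were all low, at most 1.18% in FMT_young and 0.906% in FMT_aged over Bhlhe41, Zbtb32, Ctla4, Cd5, Fcer2a, Cr2, Nt5e and Tbx21.

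Clusters 4 and 7 were mostly of FMT_aged cells, and a cluster mostly of 1 library may be that library and not a cell type. Cluster 4 held 7 FMT_young and 57 FMT_aged cells and was led by Cd36, AF067061, Ly6k, Nrp1, Cfp, Ebi3 and Il10. Il10 encodes the cytokine by which regulatory B cells dampen inflammation, and Cd5 was found in 28.6% of its FMT_young and 19.3% of its FMT_aged cells. Cluster 7 held 2 FMT_young and 30 FMT_aged cells and was led by genes of the secretory pathway, Creld2, Derl3, Edem1, Hsp90b1, Fkbp11, Manf, Sdc1, Mzb1 and Xbp1. Its 30 FMT_aged cells all had a UMI of Xbp1, the factor that expands the secretory pathway in plasma cells, and stood below the 20% immunoglobulin limit of the rule with a median of 11.7%. Sdc1, which encodes the plasma cell marker CD138, was found in 68.8% of all its cells, against 9.38% for Cd22, an inhibitory coreceptor gene of mature B cells, so the markers of cluster 7 go against the label of mature B cells. It was kept in the sums over the B cell clusters, and values in clusters 0, 2 and 3 stand beside those it touches most. Mki67, a gene of dividing cells, was found in 63.3% of these 30 cells and in 28.1% of the 57 FMT_aged cells of cluster 4.

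Across the B cell clusters 3923 genes reached 100 UMIs over both libraries, and 8.51% of them were at least 1.5-fold higher and 10.6% at least 1.5-fold lower in FMT_young, with a median log2 ratio of -0.01. Within clusters 0, 2 and 3 together, where both libraries held many cells, the figures were 5.77% and 3.82% of 2826 genes, with a median of 0.02. In cluster 0 alone, 9.89% and 11.5% of 5177 genes with at least 30 UMIs were past 1.5-fold higher and lower. In cluster 2 these shares were 8.63% and 13.3% of 2062 genes, and in cluster 3 they were 10.6% and 10.3% of 1168 genes.

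Immediate early genes, which cells transcribe within minutes of a stimulus and which encode AP-1, EGR and KLF transcription factors and their feedback inhibitors, stood higher in FMT_young. Of 24 list genes tested in the B cell clusters, 22 were at least 1.5-fold higher in FMT_young and none lower, with a median log2 ratio of 1.35. The counts were 19 of 25 in cluster 0 (median 1.26), 17 of 23 in cluster 2 (0.95) and 17 of 20 in cluster 3 (0.98), so each of the 3 clusters that both libraries filled showed the difference. Among genes of orphan nuclear and zinc finger factors, Nr4a1 (chr15:101254269-101274795), which antigen receptor signals induce in B cells, had 115 CPM in FMT_young and 11.0 CPM in FMT_aged, and a UMI in 24.4% and 4.90% of cells. Its log2 ratio was 3.39 (2.75 to 4.07). Egr1 had 1301 CPM in FMT_young and 180 CPM in FMT_aged, a log2 ratio of 2.85 (2.69 to 3.01), and was seen in 77.9% and 36.1% of cells. Both genes were higher in FMT_young in cluster 0 and in cluster 2 taken alone, Nr4a1 by 3.20 and 3.09 and Egr1 by 2.55 and 1.98 on the log2 scale. Egr3, another EGR factor gene, had 112 CPM in FMT_young and 32.6 CPM in FMT_aged, with a ratio of 3.03 in cluster 0 and 0.48 in cluster 2.

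AP-1 subunit genes had smaller ratios at higher levels. Fos (chr12:85473890-85477273) had 1521 CPM in FMT_young and 620 CPM in FMT_aged, a log2 ratio of 1.29 (1.19 to 1.40). Jun had 1803 and 789 CPM, Junb 972 and 420 CPM, and Jund 1850 and 780 CPM, in FMT_young and FMT_aged, with log2 ratios of 1.19, 1.21 and 1.25. The ratios of these AP-1 genes were close to each other. Of the Krüppel-like factors, Klf2 (chr8:72319033-72321656), which restrains B cell activation and supports homing, had 2145 CPM in FMT_young and 541 CPM in FMT_aged, a log2 ratio of 1.99 (1.89 to 2.09). Klf4 and Klf6 had ratios of 1.86 and 1.81. The phosphatase gene Dusp1, a feedback inhibitor of MAP kinases, had 309 CPM in FMT_young and 82.5 CPM in FMT_aged, and Cd69, whose product holds lymphocytes in tissue, had 512 and 234 CPM, with log2 ratios of 1.91 and 1.13. The 2 tested list genes that were not past 1.5-fold were Myc, with 92.4 CPM in FMT_young and 87.3 CPM in FMT_aged (0.08, -0.29 to 0.44), and Gadd45b (0.47, 0.25 to 0.70).

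The difference was also present outside B cells. In granule progenitor cells 25 of 29 list genes were at least 1.5-fold higher in FMT_young (median 1.02), where 4.1% of 12560 genes were past that fold and 1.97% past it in the other direction. In cells with at least 20% immunoglobulin the count was 22 of 28 (median 0.83), where 4.95% of 9807 genes were higher and 2.96% lower. Klf2 had a ratio of 2.10 in granule progenitors and 1.99 in the B cell clusters, and Egr1 had 1.78 and 2.85. A difference between the animals and one between the preparations of the libraries cannot be told apart with 1 library per group.

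**Figure D2:**
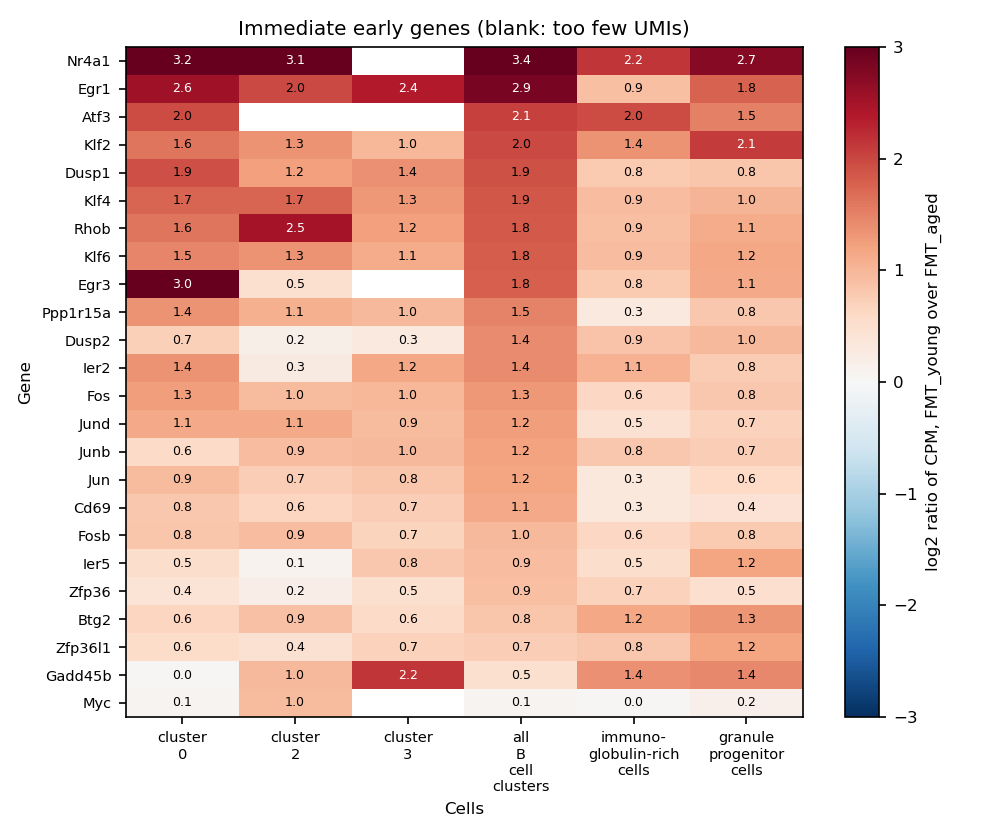
Log2 ratio of CPM, FMT_young over FMT_aged (colour and printed value), of 24 immediate early genes (rows) in clusters 0, 2 and 3, in all B cell clusters, in immunoglobulin-rich cells and in granule progenitor cells (columns), with blank cells for genes with too few UMIs. No printed ratio is below 0, the B cell cluster column runs from 0.1 for Myc to 3.4 for Nr4a1, and the granule progenitor column shows the same genes above 0.

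Promoter sequences of 4 of these genes are shown because they carry, or lack, TGACGT, a part of the cyclic AMP response element that CREB and ATF factors bind. Each runs from 250 bases before to 50 after the gene's start in RefSeq (GRCm38.p6), on the gene's strand, with TGACGT or its reverse complement ACGTCA in capitals. They are the promoters of Fos (chr12:85473640-85473939, plus strand), Atf3 (chr1:191183284-191183583, minus strand), Dusp1 (chr17:26508423-26508722, minus strand) and Nr4a1 (chr15:101266596-101266895, plus strand).
Fos: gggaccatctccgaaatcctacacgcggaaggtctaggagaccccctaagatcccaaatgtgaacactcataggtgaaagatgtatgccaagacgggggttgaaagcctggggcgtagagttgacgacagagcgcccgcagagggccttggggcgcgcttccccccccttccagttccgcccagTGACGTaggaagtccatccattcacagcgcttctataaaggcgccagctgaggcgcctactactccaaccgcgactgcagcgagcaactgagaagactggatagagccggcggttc
Atf3: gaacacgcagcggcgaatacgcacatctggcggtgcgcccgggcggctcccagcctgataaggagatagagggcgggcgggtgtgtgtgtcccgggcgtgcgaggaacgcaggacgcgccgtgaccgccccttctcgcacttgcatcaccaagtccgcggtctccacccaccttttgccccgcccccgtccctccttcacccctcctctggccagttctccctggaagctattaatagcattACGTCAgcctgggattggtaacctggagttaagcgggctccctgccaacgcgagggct
Dusp1: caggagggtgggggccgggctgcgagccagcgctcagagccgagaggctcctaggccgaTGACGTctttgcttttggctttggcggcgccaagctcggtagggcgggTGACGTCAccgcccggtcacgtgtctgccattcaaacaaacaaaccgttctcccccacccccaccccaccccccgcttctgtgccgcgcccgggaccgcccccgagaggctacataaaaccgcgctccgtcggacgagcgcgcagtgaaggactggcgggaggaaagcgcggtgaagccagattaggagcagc
Nr4a1: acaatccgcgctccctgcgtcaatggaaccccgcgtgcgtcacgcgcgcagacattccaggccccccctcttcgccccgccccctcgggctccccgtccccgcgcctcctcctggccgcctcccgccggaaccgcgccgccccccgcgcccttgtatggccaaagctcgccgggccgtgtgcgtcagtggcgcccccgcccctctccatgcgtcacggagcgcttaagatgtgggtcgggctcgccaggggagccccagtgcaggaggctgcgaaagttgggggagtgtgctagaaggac
Of the 29 list genes, 24 matched the RefSeq table by symbol, and 7 of these promoters (29.2%) held the motif on either strand. Of all 27025 promoters of 300 bases in the table, 2011 (7.44%) held it. The 7 are those of Atf3, Btg2, Dusp1, Dusp5, Fos, Nr4a3 and Ppp1r15a. The shorter string CGTCA was not searched for, and the Nr4a1 window, which lacks TGACGT, holds it. A match describes letters in the window and no binding was measured here.

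Genes of the NF-kB response, which includes the inhibitors and surface molecules that NF-kB dimers induce, were higher in 9 of 17 tested in the B cell clusters and lower in none, with a median of 0.61. In cluster 0 the count was 12 of 18 (median 0.91) and in cluster 2 it was 5 of 9 (0.83). Rel, which encodes the c-Rel subunit, had 308 CPM in FMT_young and 143 CPM in FMT_aged, a log2 ratio of 1.11 (0.88 to 1.34). Cd83, an activation marker of B cells, had 195 CPM in FMT_young and 77.2 CPM in FMT_aged, with ratios of 1.86 in cluster 0 and 1.90 in cluster 2. The genes of other subunits were closer to each other in the libraries, with ratios of -0.04 for Rela and 0.34 for Nfkb1. In granule progenitors 4 of 22 list genes were past 1.5-fold higher, with a median of 0.19.

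Of 19 heat shock and unfolded protein genes tested within clusters 0, 2 and 3 together, 6 were past 1.5-fold higher in FMT_young and none lower (median 0.45), and cluster 2 had 9 of 19 (0.52). Dnaja1, which encodes a cochaperone of HSP70, had 643 CPM in FMT_young and 262 CPM in FMT_aged over the B cell clusters, with ratios of 1.14, 1.06 and 1.34 in clusters 0, 2 and 3. The stress-inducible HSP70 genes Hspa1a and Hspa1b, near-identical copies whose reads cannot be assigned with certainty, had 754 and 959 CPM in FMT_young, against 429 and 440 CPM in FMT_aged. Over all B cell clusters the list was split, with 5 of 21 genes higher and 6 lower in FMT_young (median 0.04). The list also holds chaperones of the endoplasmic reticulum, and Manf, one of these, had 111 CPM in FMT_young and 458 CPM in FMT_aged.

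Most genes of antigen presentation and of the B cell receptor were within 1.5-fold. Over all 3923 tested genes of the B cell clusters, 8.51% were past 1.5-fold higher and 10.6% lower in FMT_young. Of 10 tested MHC class II genes, with Cd74 of the rule left out, 3 were past 1.5-fold higher and none lower in FMT_young (median 0.38). Ciita, the master regulator of these genes, had 203 CPM in FMT_young and 90.0 CPM in FMT_aged, a ratio of 1.17 (0.89 to 1.46), which was 0.96 in cluster 0, -0.15 in cluster 2 and 0.12 in cluster 3. The structural gene H2-Ab1 had 2291 CPM in FMT_young and 2160 CPM in FMT_aged (0.09). The MHC class I list had none of 11 genes past 1.5-fold, with a median of -0.29 that was also seen in granule progenitors (-0.31). Of 23 receptor and coreceptor genes, with Cd79a of the rule left out, 3 were past 1.5-fold higher and none lower (median 0.26), led by Cd72, an inhibitory coreceptor gene, with 159 CPM in FMT_young and 69.3 CPM in FMT_aged (1.20, 0.87 to 1.53).

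The levels of B cell marker genes depended on which clusters were summed. Cd79a (chr7:24897381-24902197) had 2493 CPM in FMT_young and 2190 CPM in FMT_aged, and Ms4a1 (chr19:11249675-11266241) had 1342 and 1319 CPM. These are genes of the rule and are given as a description. Ighd had 360 CPM in FMT_young and 185 CPM in FMT_aged over the B cell clusters, a ratio of 0.96 (0.75 to 1.17), but 103 and 105 CPM in cluster 0 and 1019 and 1324 CPM in cluster 2. Within cluster 2 the Ighd ratio was -0.38, while cluster 2 made up 39.9% of the B cell cluster cells in FMT_young and 17.2% in FMT_aged. Fcer2a behaved alike, with a ratio of 1.61 over all B cell clusters and 0.10 in cluster 2. Fcmr, which encodes the Fc receptor for IgM, had 617 CPM in FMT_young and 385 CPM in FMT_aged (0.68), with 0.72 in cluster 0 and -0.39 in cluster 3. The list of 7 follicular genes had 5 past 1.5-fold higher over all clusters (median 0.90) and 1 within cluster 2 (0.05).

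Of 20 B cell transcription factor genes, 7 were past 1.5-fold higher and 1 lower in FMT_young (median 0.37). Pax5, the identity factor of B cells, had 341 CPM in FMT_young and 193 CPM in FMT_aged (0.82), and 0.70 in cluster 0. Ebf1, which acts with Pax5, had a ratio of 0.82 over all clusters, 0.54 in cluster 0 and -0.35 in cluster 2, where its direction was the opposite. Pou2af1, a coactivator of immunoglobulin promoters, was the 1 lower gene, with 188 CPM in FMT_young and 314 CPM in FMT_aged (-0.74). In cluster 2 the factor list had 1 gene higher and 5 lower (median -0.15). All 2062 tested genes of cluster 2 leaned the same way, with 8.63% higher, 13.3% lower and a median of -0.08. Of 14 homing genes 5 were higher and none lower (median 0.06). Gpr183, an oxysterol receptor gene that positions B cells, had 101 CPM in FMT_young and 34.0 CPM in FMT_aged (1.58) and 1.34 in cluster 2. The chemokine receptor gene Cxcr4, which retains B cells in marrow, had 159 CPM in FMT_young and 75.0 CPM in FMT_aged (1.08). S1pr1, the egress receptor gene, had opposite ratios by cluster, 1.02 in cluster 0 and -0.59 in cluster 2.

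Of the 415 genes lower in FMT_young over the B cell clusters, 169 were also past 1.5-fold lower without clusters 4 and 7 and 246 were not, with no minimum count. Of the 334 higher genes, 167 were and 167 were not. Of 8 tested genes of the plasma cell programme, 7 were past 1.5-fold lower and none higher, with a median of -1.77. Creld2 (chr15:88819646-88826683), a chaperone gene of the endoplasmic reticulum, had 59 UMIs (58.7 CPM) in FMT_young and 1208 UMIs (533 CPM) in FMT_aged, a log2 ratio of -3.18 (-3.59 to -2.81). Xbp1 had 59.6 CPM in FMT_young and 233 CPM in FMT_aged, and the chaperone gene Hsp90b1 had 586 and 2213 CPM. The 30 FMT_aged cells of cluster 7 alone held 1009 CPM of Xbp1, 2560 CPM of Creld2 and 9423 CPM of Hsp90b1. Jchain, which joins IgM into pentamers, had 247 CPM in FMT_young and 1342 CPM in FMT_aged, and 6442 CPM in those 30 cells. Within clusters 0, 2 and 3, 2 of 5 tested genes of the programme were lower and none higher (median -0.55).

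Proliferation genes showed the same layout, with 10 of 12 tested lower and none higher over all B cell clusters (median -1.06), and none of 3 past 1.5-fold in either direction within clusters 0, 2 and 3 (-0.09). Mki67 (chr7:135689784-135716361) had 14.9 CPM in FMT_young and 165 CPM in FMT_aged (-3.47, -4.32 to -2.73). Cd36 (chr5:17781690-17888801), a scavenger receptor gene that leads cluster 4, had 3 UMIs in FMT_young and 229 UMIs in FMT_aged, a log2 ratio of -5.08 (-7.37 to -3.52). Isg15, an interferon-induced gene, had a ratio of -3.93, but 52 of its 137 UMIs in FMT_aged came from 1 cell. Of 12 tested type I interferon genes, 3 were lower and none higher over all clusters (median -0.11), and in clusters 0, 2 and 3 none of 8 was lower and 1 higher.

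**Figure D3:**
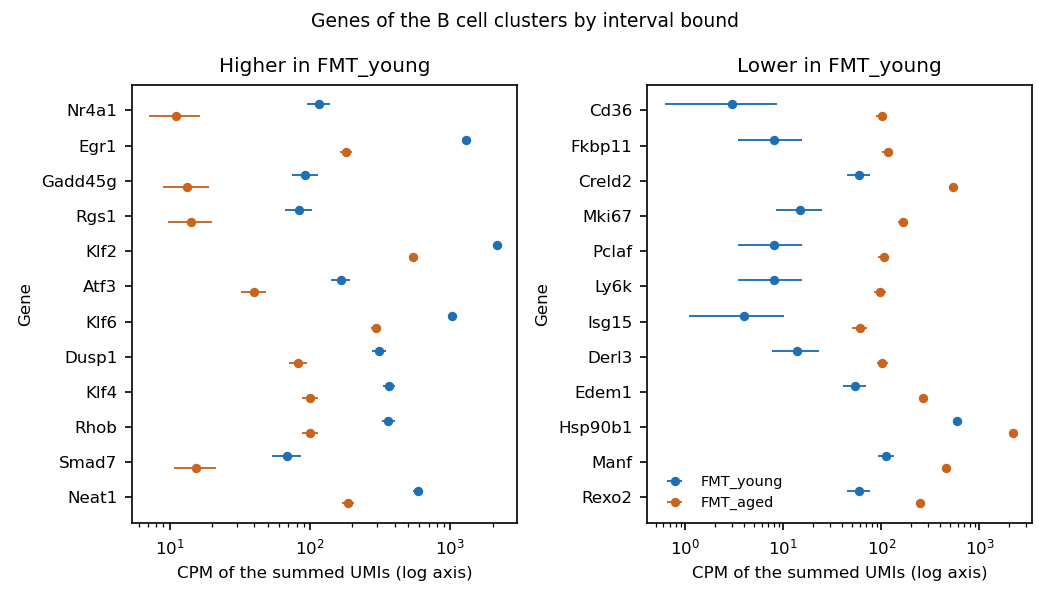
CPM of the summed UMIs of the B cell clusters (horizontal log axis) in FMT_young (blue) and FMT_aged (orange), with exact 95% Poisson intervals, for the 12 genes in each direction whose interval lay farthest from equality. The higher genes are led by Nr4a1 and Egr1 and the lower by Cd36, with 2.98 CPM in FMT_young and 101 CPM in FMT_aged.

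Cluster 0, the largest group of B cells in either library, also had other genes that differed. Fam71a had 78.9 CPM in FMT_young and 7.64 CPM in FMT_aged (3.37), and Pigr, which encodes the receptor that carries IgA and IgM across epithelia, had a ratio of 2.12. Fam71a (chr1:191162584-191164817) lies close to the immediate early gene Atf3 (chr1:191170296-191218039), on the same strand. Lower in FMT_young were Gstt2, a glutathione transferase gene with near-identical neighbours, with 9.39 CPM in FMT_young and 56.3 CPM in FMT_aged (-2.58), Ddt, a homologue of the cytokine MIF, with a ratio of -1.66, and Ly6d, a lymphoid surface protein gene, with 943 and 1646 CPM (-0.80). Lars2, a mitochondrial tRNA synthetase gene, had 233 CPM in FMT_young and 502 CPM in FMT_aged, and was lower in cluster 2 and in granule progenitors as well. Of the 12 most clearly lower genes of cluster 0, 5 lie on chromosome 10: Gstt2 (chr10:75831114-75837424), Ddt (chr10:75771230-75773414), Rmnd1, Epb41l2 and Tab2.

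That position was followed over all genes of cluster 0, after the 5 genes had been seen. On chromosome 10, 92 of 288 tested genes (31.9%) were at least 1.5-fold lower in FMT_young and 8 (2.78%) higher, while over all chromosomes 11.5% were lower and 9.89% higher. Next came chromosome 15, with 15.4% lower and 3.75% higher, and the other 18 chromosomes had 7.08% to 12.7% lower. The median log2 ratio of chromosome 10 genes, less the median of all genes, was -0.38 over 282 genes, of which 19.5% were above 0, and it was between -0.49 and -0.26 in each of its 7 windows of 20 Mb. Chromosome 15 had a median of -0.12, and the other 18 chromosomes lay between -0.03 and 0.15. In clusters 2 and 3 together the same ratio was 0.02 for chromosome 10 and 0.00 for chromosome 15, and in granule progenitors each chromosome lay between -0.02 and 0.03.

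Set against clusters 2 and 3 of their own library, FMT_young cells of cluster 0 had a median of -0.04 on chromosome 10 and 0.34 on chromosome 15, and FMT_aged cells had 0.37 and 0.52. The other 18 chromosomes lay between -0.13 and 0.05 in FMT_young and between -0.16 and 0.05 in FMT_aged. Without the genes used in clustering the FMT_aged medians were 0.49 on chromosome 10 and 0.57 on chromosome 15, and the FMT_young median on chromosome 15 was 0.36. The FMT_aged difference ran along the whole of both chromosomes, with medians of 0.25 to 0.51 in each of the 7 windows of chromosome 10 and of 0.37 to 0.83 in each of the 6 windows of chromosome 15. FMT_aged cells of cluster 4 had 0.71 on chromosome 15 and 0.05 on chromosome 10, and those of cluster 7 had 0.76 and 0.19. The 7 FMT_young cells of cluster 4 had 0.67 on chromosome 15. Genes of chromosome 15 were thus high in clusters 0, 4 and 7 of FMT_aged and in clusters 0 and 4 of FMT_young, while the medians of chromosome 10 genes in FMT_aged were 0.37 in cluster 0 and 0.19 in cluster 7.

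The cells of a cluster were not alike in these shares. The shares are of a cell's UMIs without immunoglobulin, ribosomal protein and mitochondrial genes and without the marker lists of other cell types. Genes of chromosome 10 held a median of 4.40% of these UMIs in FMT_young and 6.00% in FMT_aged in cluster 0, against 4.14% and 4.31% in cluster 2. The FMT_aged cells of cluster 0 spread from 4.16% at the 10th to 7.04% at the 90th percentile, and 137 of 230 (59.6%) lay above the 95th percentile of clusters 2 and 3, set in the same library (5.61%), against 2 of 116 (1.72%) above the limit of 5.31% in FMT_young. Cluster 7 of FMT_aged was about as high in this share, with a median of 5.76% and 17 of 30 cells (56.7%) above the limit. Its gene medians by 20 Mb window of chromosome 10 ran from -0.68 to 0.84, so it did not show the rise along the whole chromosome seen in cluster 0. Hsp90b1, a leading gene of cluster 7 with a high level, lies on chromosome 10 (chr10:86690209-86705509) and counts in the share. Granule progenitors were above these limits in 60.4% of FMT_young and 41.1% of FMT_aged cells, and immunoglobulin-rich cells in 16.1% and 14.7%. The limits for chromosome 15 were 5.25% in FMT_young and 5.80% in FMT_aged. The numbers above them in cluster 0 were 44 of 116 (37.9%) in FMT_young and 119 of 230 (51.7%) in FMT_aged, and in cluster 4 they were 6 of 7 and 47 of 57. Of the 230 FMT_aged cells of cluster 0, 83 were above on both chromosomes, 54 on chromosome 10 alone, 36 on chromosome 15 alone and 57 on neither. Cluster 4 of FMT_aged had 6, 1, 41 and 9 such cells of 57, and cluster 7 had 13, 4, 13 and 0 of 30. Immunoglobulin-rich cells were above the limit on chromosome 15 in 4.17% in FMT_young and 15.6% in FMT_aged, and granule progenitors in 0.666% and 0.105%. Myc (chr15:61985391-61990374), which lies on chromosome 15, had 103 CPM in FMT_young and 98.3 CPM in FMT_aged in cluster 0. In clusters 2 and 3 Myc had 92.6 and 46.2 CPM in FMT_young, from 24 and 6 UMIs. In FMT_aged it had 47.9 and 46.9 CPM there, from 8 and 6 UMIs. DNA was not measured, so the copy number of these chromosomes was not tested.

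**Figure D4:**
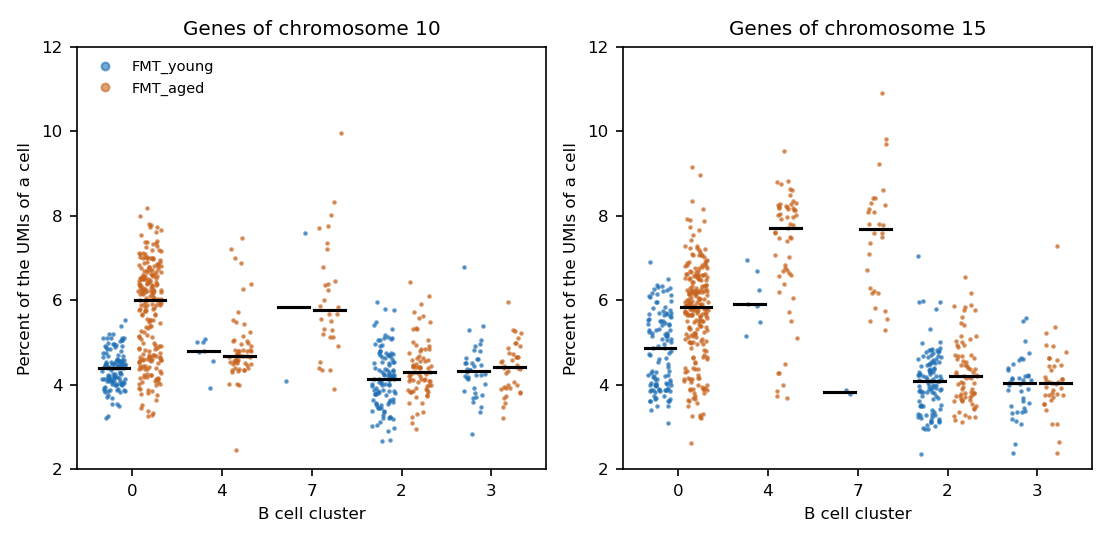
Percent of a cell's UMIs in genes of chromosome 10 (left panel) and chromosome 15 (right panel), 1 point per cell, in B cell clusters 0, 4, 7, 2 and 3 of FMT_young (blue) and FMT_aged (orange), with medians as bars. The percents leave out immunoglobulin, ribosomal protein and mitochondrial genes and the marker lists of other cell types. In cluster 0 the chromosome 10 medians are 4.40% in FMT_young and 6.00% in FMT_aged, and clusters 2 and 3 stay near 4% in both libraries.

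Xist and the lambda light chains differed between the libraries in cluster 0. Xist (chrX:103460366-103483254), the RNA that silences 1 X chromosome in female cells, had 887 CPM in FMT_young and 2263 CPM in FMT_aged, a log2 ratio of -1.35 (-1.50 to -1.21). No UMI of Xist was found in 60 of 116 FMT_young cells (51.7%, 42.3% to 61.1%) and 10 of 230 FMT_aged cells (4.35%, 2.10% to 7.85%). In cluster 4 it was missing in 6 of 7 and 3 of 57 cells, in cluster 2 in 11 of 108 and 11 of 74, and in cluster 3 in 3 of 38 and 1 of 38. FMT_young cells of cluster 0 without Xist had a median of 4100 UMIs and those with it 3956, so the cells without it were not the shallower ones. No UMI of 4 Y-linked genes was found in any mature B cell of either library. Outside the mature B cells Xist was not seen in 4.86% of FMT_young and 9.69% of FMT_aged granule progenitors, which were deeper, in 10.4% and 6.55% of immunoglobulin-rich cells, and in 13.6% and 18.2% of the remaining called cells.

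In the FMT_young cells of cluster 0 that lacked Xist, most of the genes looked at that are known to escape silencing on the X chromosome had lower levels than in the cells with it. Ddx3x, an RNA helicase gene, had 295 CPM without Xist and 553 CPM with it, the demethylase gene Kdm6a had 14.2 and 63.7 CPM, and Pbdc1 had 32.0 and 75.6 CPM. Eif2s3x, a translation factor gene, was close in the cells without and with Xist, at 46.2 and 55.7 CPM. Kdm5c, another demethylase gene, had no UMI without Xist, with an upper 95% Poisson bound of 13.1 CPM, and 43.8 CPM with it. Apart from Ddx3x, the levels of these X-linked genes rest on few UMIs in the 60 and 56 cells, so their counting error is wide. Genes of chromosome 15 held a median share, with the same genes left out as above, of 5.42% in cells without Xist and 4.17% in cells with it. Vcl, which encodes the adhesion protein vinculin, had 149 CPM without Xist and 23.9 CPM with it.

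The light chain differed along the same line. Iglc1 (chr16:19061618-19062071), a lambda constant gene, was the light chain gene with most UMIs in 51 of 116 FMT_young cells of cluster 0 (44.0%) and 3 of 230 FMT_aged cells (1.30%). It led in 38 of the 60 FMT_young cells without Xist and in 13 of the 56 with it. Cells without Xist had 2800 CPM of Igkc, the kappa constant gene, and 3710 CPM of Iglc1, while cells with it had 11546 and 1891 CPM. Over cluster 0 Iglc1 made up 24.4% of light chain UMIs in FMT_young and 7.82% in FMT_aged, and 3.65% and 6.88% in cluster 2. Free RNA, read from barcodes under 100 UMIs, was nearly all kappa, with Igkc at 98.3% of light chain UMIs in FMT_young and 96.3% in FMT_aged. These splits were made after the values had been seen.

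**Figure D5:**
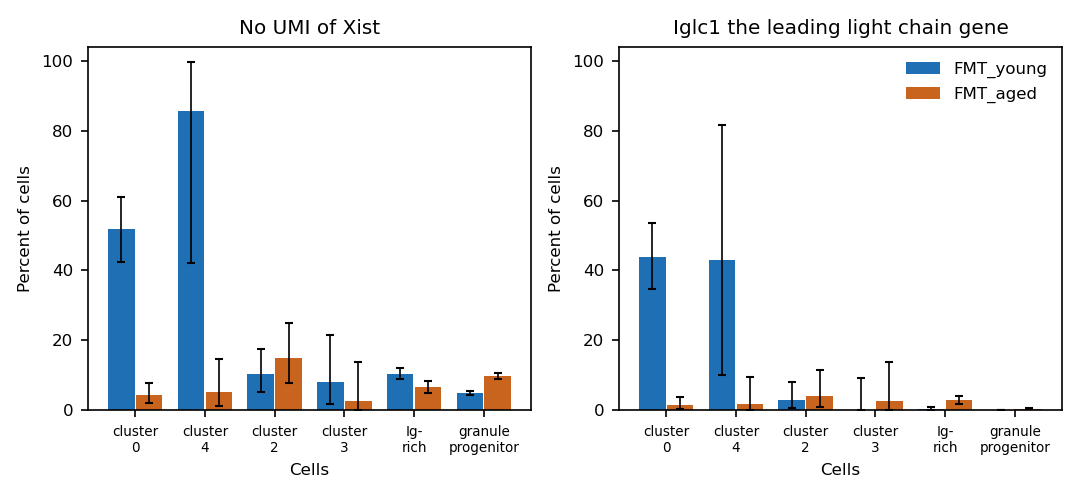
Percent of cells with no UMI of Xist (left panel) and with Iglc1 as the light chain gene of most UMIs (right panel) in B cell clusters 0, 4, 2 and 3, immunoglobulin-rich cells and granule progenitor cells, in FMT_young (blue, left bar) and FMT_aged (orange, right bar), with exact 95% binomial intervals. In cluster 0 the FMT_young bars stand at 51.7% and 44.0% and the FMT_aged bars at 4.35% and 1.30%.

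Immunoglobulin genes held 2.04% of the UMIs of the B cell clusters in FMT_young and 4.24% in FMT_aged, and 2.04% and 2.54% in clusters 0, 2 and 3. Ighm, the IgM constant gene, made up 92.5% of heavy chain UMIs in FMT_young and 98.1% in FMT_aged, and Ighd 4.81% and 1.16%. Switched classes were rare: Ighg2b had 77 UMIs in 12 cells in FMT_young and 33 UMIs in 8 cells in FMT_aged, and Ighg3 had 53 UMIs in 15 cells and 71 UMIs in 36 cells. Igha had 65 and 148 UMIs, where the estimated free RNA would bring 61.9 in FMT_young and 36.4 in FMT_aged.

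V segment transcripts were few, since the 3′ reads seldom reach them. In FMT_young B cell clusters 32 Ighv UMIs and 52 Igkv UMIs were counted, spread over 18 Ighv genes. In FMT_aged, Ighv1-55 held 44 of 75 Ighv UMIs and Igkv12-89 held 69 of 172 Igkv UMIs. Ighv1-55 was found in 30 of 429 FMT_aged cells, Igkv12-89 in 24 and both in 14, against 3, 0 and 0 of 271 FMT_young cells. In cluster 7 of FMT_aged the numbers were 16, 14 and 12 of 30 cells, in cluster 4 they were 9, 8 and 2 of 57, and in cluster 0 they were 4, 2 and 0 of 230. Immunoglobulin-rich cells held the pair too, in 7 of 1632 cells in FMT_young and 28 of 855 in FMT_aged. The cells of clusters 4 and 7 of FMT_aged with either segment had a median share of 8.09% on chromosome 15, and those with neither had 7.05%. Both shares leave out the same genes as the shares by chromosome above.

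The V segments that dominated in FMT_aged are shown from GENCODE vM21 (GRCm38), as the last exon of each on the gene's strand, with the bases of the conserved tyrosine, tyrosine and cysteine codons at the end of framework 3 in capitals. Ighv1-55 lies at chr12:115208095-115208384 and Igkv12-89 at chr6:68834846-68835135, both on the minus strand. V genes have near-identical relatives, so the assignment of a UMI to 1 of them is uncertain.
Ighv1-55: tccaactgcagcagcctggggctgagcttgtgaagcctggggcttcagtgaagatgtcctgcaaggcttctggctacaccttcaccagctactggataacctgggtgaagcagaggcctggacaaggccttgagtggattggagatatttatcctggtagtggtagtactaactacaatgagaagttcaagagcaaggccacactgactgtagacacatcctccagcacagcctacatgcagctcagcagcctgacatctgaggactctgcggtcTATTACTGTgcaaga
Igkv12-89: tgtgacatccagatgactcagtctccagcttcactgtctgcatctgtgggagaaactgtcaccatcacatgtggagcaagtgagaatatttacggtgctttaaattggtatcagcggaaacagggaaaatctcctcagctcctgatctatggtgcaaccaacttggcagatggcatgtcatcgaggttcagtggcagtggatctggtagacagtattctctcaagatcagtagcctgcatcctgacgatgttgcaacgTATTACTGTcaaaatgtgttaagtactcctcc

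Free RNA was estimated to supply 3.87% of the UMIs of the B cell clusters in FMT_young and 1.96% in FMT_aged. The 5 granule progenitor genes, from which this estimate is made, summed to 713 CPM in FMT_young and 366 CPM in FMT_aged, so their difference is no check of it. The 7 neutrophil genes, which do not enter it, summed to 617 and 318 CPM. Lists of T cell genes (31.8 and 19.4 CPM, with 4 of 9 genes at 0 in FMT_young and 2 of 9 in FMT_aged) and of erythroid genes (47.7 and 14.1 CPM) were low in both. The pro-B and pre-B list summed to 4.97 CPM in FMT_young, with 5 of 7 genes at 0, and 39.3 CPM in FMT_aged, of which Vpreb1 had 39 UMIs in 1 cell. Free RNA itself held 574 CPM of Egr1 in FMT_young and 253 CPM in FMT_aged. The gene ratios were computed again with the estimated free RNA subtracted, as an alternative setting. Over all settings the immediate early median in the B cell clusters stayed between 1.14 and 1.48. The estimate itself rests on the granule progenitor genes.

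Over all 999 cells of the rule, the sums also hold the clusters of other lineages. Of 8264 genes with at least 100 UMIs, 3.96% were past 1.5-fold higher and 6.68% lower in FMT_young (median -0.10). These were 327 genes higher and 552 lower, against 439 higher and 385 lower with TMM scaling and 651 higher and 655 lower when CPM was averaged over cells. Without the genes of the rule, the mature B marker list was then lower in 2 of 4 and higher in none (median -0.52), and the MHC class II list lower in 7 of 11 (-0.62), while the medians in the B cell clusters were 0.58 and 0.38. The neutrophil genes Ngp and Camp had ratios of 1.79 and 1.70. The immediate early list was higher in 22 of 28 and lower in none (median 0.93).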

How the data were processed

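The matrices deposited by the authors hold counts, the unnormalized UMI counts of each gene in each barcode. Per the submitters' processing notes Cell Ranger and mm10 were used, and the file headers give version 3.1.0. The libraries were made with the Chromium 3' kit v3, per the labels. The deposited files of 31053 gene names and 6794880 barcodes carry no measured value (unit other). They include every barcode of the kit, so the cell calls were made here. The members and gene lists were chosen with earlier results of these data known.

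Members were clustered with scanpy 1.11.5 and leidenalg 0.10.2 in Python 3.11.15 (2000 variable genes without immunoglobulin genes, 20 components, 15 neighbours, resolution 0.6). A cluster with at least 3 of its 20 leading genes in the marker lists of other cell types was set aside. Doublets were marked, not removed, by a Scrublet-type score as the top 0.8% per 1000 called cells (30 components, 2 simulated doublets per cell). UMIs were summed over cells and given as CPM with exact Poisson intervals, shares with Clopper-Pearson intervals and ratios with conditional binomial intervals (scipy 1.17.1), all at 95% and for counting error only. A prior of 0.5 entered ratios with a count of 0. Genes needed 100 UMIs in both libraries together, or 30 within a single cluster and by chromosome, and "past 1.5-fold" is a size, not a test.

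Named genes are the 12 in each direction whose interval bound lay farthest from 0, among genes of at least 50 CPM in the higher library and without immunoglobulin, ribosomal, mitochondrial and unnamed genes, the 2 in each direction of each list, and list genes described by role. Steps were tested on simulated data. Free RNA was taken from barcodes under 100 UMIs. Positions are from GENCODE vM21 (GRCm38). Medians and cell shares by chromosome left out immunoglobulin, ribosomal protein and mitochondrial genes and the marker lists of other cell types. Alternatives changed the mitochondrial limit, marker and immunoglobulin thresholds, doublets, the denominator, the minimum count, the scaling, the free RNA and the clusters included. The sets by cluster, chromosome and Xist were chosen after the data had been seen.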

Additional observations from a re-analysis of the deposited data

How the results depend on the processing

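The log2 ratio of the share of mature B cells was -0.54, and it was -0.14 with a mitochondrial limit of 5%, -0.73 with at least 2 UMIs of each marker, -0.75 without cells that carry markers of other types, and -0.88 over cells without Kit. For the B cell clusters it was -0.73, and -0.19 with the 5% limit, -0.46 without clusters 4 and 7, and -1.06 without the cluster 0 cells that lack Xist. The number of genes past 1.5-fold higher in mature B cells was 327, and 203 with the 5% limit, 729 without doublets, 112 without cells with markers of other types, 651 as a mean over cells, 624 with a minimum of 30 UMIs and 2676 with none. The number lower was 552, and 323, 870, 86, 978 and 3151 for the 5% limit, doublets, other markers, 30 UMIs and no minimum, and 269 with immunoglobulin under 10%. In the B cell clusters 334 genes were higher, and 114 without cells with markers of other types, 874 with 30 UMIs, 2940 with no minimum, 163 without clusters 4 and 7, and 72 with cells thinned to 1000 UMIs. There 415 were lower, and 91, 1067, 2642, 108 and 54 under the same alternatives, and 269 with the 5% limit. Without the immunoglobulin UMIs in the total, 388 genes were higher and 454 lower in mature B cells, and 439 and 385 with TMM scaling, whose log2 factor of FMT_young over FMT_aged was -0.09, so that every ratio there was higher by that size.

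Over the settings, 15 of 22 list medians in mature B cells and 8 of 19 in the B cell clusters took values on both sides of 0, among them those of the NF-kB response (-0.30 to 0.38), the B cell receptor (-0.71 to 0.15) and the B cell transcription factors (-0.54 to 0.29) in mature B cells. Directions of values past 1.5-fold turned as follows. In mature B cells the plasma cell programme had a median of 0.0238 with immunoglobulin under 10%, the mature B markers 0.23 without cells with markers of other types and 0.0208 as a mean over cells, the MHC class II genes 0.224 and 0.0689, and Camp -0.32. In the B cell clusters Derl3 was at 0.000815 with an immunoglobulin limit of 40%, and without clusters 4 and 7 Pclaf was at 1.96, Edem1 at 0.0958 and Rexo2 at 0.14. The cause was not tested. Of 837 gene values under alternatives, 620 stayed within the interval of the main value. Of 676 list medians, 629 stayed on the same side of the 1.5-fold size, and a median below that size could change sign within this count. The immediate early median stayed between 1.14 and 1.48 in the B cell clusters and between 0.86 and 1.15 in mature B cells.

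No paired analysis was possible because each group has 1 library. The 271 and 429 cells, and clusters of 38 cells or fewer, limit what can be seen of weakly expressed genes, and with 1 library per group no value here separates the treatment from the library.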
